A study of Mus musculus with 2 samples.

Results

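Group 2 innate lymphoid cells (ILC2s) were taken from the CD45+ cells of mouse visceral adipose tissue (VAT) by a fixed set of count limits, which selected 1610 of the 25198 cells that passed filtering. A member carried at least 1 unique molecular identifier (UMI, a tag that marks one captured RNA molecule) of Il1rl1 and at least 1 of Gata3, with no UMI of Cd3e, Cd3d, Foxp3 or Cdh5. It also carried fewer than 10 UMIs of the CD4 surface antibody, at most 1 UMI of Cpa3 and a sum of C1qa, C1qb and C1qc below 5 UMIs. These measured values chose the members, so the levels of the genes used and the number of members are given as a description.

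ILC2s are tissue-resident lymphocytes without an antigen receptor that respond to alarmins such as IL-33, IL-25 and TSLP. Gata3 and Rora direct their development, and ST2, the IL-33 receptor encoded by Il1rl1, is their main alarmin receptor in fat. In adipose tissue they are known as a source of IL-5 and IL-13, the cytokines that maintain eosinophils and alternatively activated macrophages there.

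The study asked how depletion of the gut microbiota by antibiotics affects the immune cells of VAT. One library came from wild-type C57BL/6 mice of 15 weeks kept on normal water (NW), and 1 library from mice of the same strain, genotype and age whose drinking water contained the antibiotics ampicillin, vancomycin, streptomycin and colistin (ABX). CD45+ cells were enriched on magnetic beads, stained with antibodies carrying sequence tags and captured in microwells, and RNA and antibody UMIs were counted per cell. The number of mice behind each library is not given in the sources used here, and with 1 library per condition, treatment and library cannot be told apart and no test between the conditions was possible. Intervals are 95% intervals and cover counting error only. Those of gene ratios do not cover variation between cells.

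The NW library gave 12474 filtered cells with a median of 5092 UMIs, and the ABX library 12724 with a median of 3846 UMIs. ILC2s were shallower than the average cell, with medians of 3967 UMIs and 1873 genes in NW and of 3522 UMIs and 1697 genes in ABX. Their mitochondrial share had a median of 4.42% in NW and 5.11% in ABX. Cells of at least 10000 UMIs numbered 17 of the NW and 9 of the ABX members. Over all members, 2644875 gene UMIs were available in NW and 3648354 in ABX. The libraries shared 371 barcode numbers, none of which belonged to a member in both.

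ILC2s made up 4.91% of the filtered cells in NW (612 of 12474, exact binomial interval 4.53 to 5.30%) and 7.84% in ABX (998 of 12724, 7.38 to 8.32%), a 1.60-fold higher share in ABX. The macrophage share stood at 52.1% in NW and 40.6% in ABX, where a macrophage is a cell with at least 5 C1q UMIs and no Cd3e, Cd3d or Cdh5. Among cells with a C1q sum below 5, ILC2s were 11.8% in NW and 14.4% in ABX, so that the ratio was 1.23-fold when macrophages were left out of the denominator. Relative to Foxp3+ regulatory T (Treg) cells and to ST2+ Foxp3- CD4 T cells the difference was wider, and the shares of both were lower in ABX. Treg cells were 3.08% of the filtered cells in NW and 1.03% in ABX, and ST2+ Foxp3- CD4 T cells 2.24% and 1.18%. There were 1.59 ILC2s per Treg cell in NW and 7.62 in ABX, and 2.19 and 6.65 per ST2+ Foxp3- CD4 T cell. Per ILC1-like cell (Ncr1 positive without Eomes, Klra8 or Il1rl1), the number was 5.56 in NW and 5.80 in ABX. These comparison cells were themselves chosen by counts of single genes. With detection of Il1rl1 and Gata3 computed at 1000 UMIs per cell, the ILC2 share was 3.01% in NW and 4.75% in ABX, a ratio of 1.58.

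The limits cut through a continuous range of counts. Members held a median of 9 Il1rl1 UMIs in NW and 8 in ABX, and a single Il1rl1 UMI was the only one in 4.58% and 5.01% of them. Gata3 was thinner, with medians of 5 and 3 UMIs and a single UMI in 13.1% and 17.2% of members. Just inside the Il1rl1 limit, at 1 UMI, Arg1 was detected in 25% of 28 NW cells and 44.0% of 50 ABX cells. Just outside it, at 0 UMIs with every other limit met, Arg1 was detected in 8.38% of 179 and 6.64% of 271 cells. At 1 Gata3 UMI the share with Arg1 was 53.8% of 80 and 69.2% of 172 cells, and at 0 Gata3 UMIs 10.1% of 367 and 19.1% of 461 cells. The cells outside for Gata3 carried the macrophage gene Lyz2 in 85.3% and 70.3% of cases, against 68.5% and 46.7% of the members. Cells left out only for 5 or more C1q UMIs had Arg1 in 55.0% of 80 and 57.1% of 56 cells, and those left out for 1 Cd3e or Cd3d UMI in 73.3% of 30 and 59.5% of 37 cells.

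The label was set beside 4 ILC2 markers that the rule did not use. Members and gene lists were chosen with earlier results of these data known. High values in the members were therefore foreseeable and are no independent check of the label. Arg1 encodes arginase 1, which tissue ILC2s express constitutively. It stood at 791 CPM (counts per 10 to the power of 6 gene UMIs) in the NW members and 701 CPM in the ABX members, 22.7-fold and 33.9-fold above all other cells of the same library. Rnf128, a ubiquitin ligase gene also known as GRAIL, was at 775 and 1008 CPM, 38.1-fold and 38.8-fold above the other cells. Calca, which encodes the neuropeptide CGRP, was at 316 and 512 CPM, 56.3-fold and 48.9-fold above. Klrg1, an inhibitory receptor gene, was at 668 and 665 CPM, 15.5-fold and 25.4-fold above the other cells. Klrg1 did not set ILC2s apart from Treg cells in NW, where Treg cells had 736 CPM and the ratio was 0.908, whereas in ABX the ratio was 2.36. Against ST2+ Foxp3- CD4 T cells the ratios of all 4 markers were smaller than against all other cells. They were 9.62 in NW and 12.1 in ABX for Arg1, and 4.96 and 5.04 for Rnf128. For Calca they were 29.97 and 8.39, and for Klrg1 3.995 and 5.22. Rnf128 was detected in 29.7% and 32.0% of those T cells.

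Detection in single cells gave the same picture of the markers. Arg1 was detected in 78.1% of NW and 75.8% of ABX members, Rnf128 in 77.0% and 81.7%, Klrg1 in 82.0% and 78.4%, and Calca in 27.1% and 34.4%. Macrophages, which served as the background for free RNA, carried a UMI of Arg1 in 3.43% and 2.62%, of Rnf128 in 4.03% and 3.04%, of Klrg1 in 3.20% and 2.42%, and of Calca in 1.09% and 1.65% of cells, although they were deeper (medians of 6084 and 4402 UMIs). Thinned to 1000 UMIs per cell, which left out 2 NW and 10 ABX members, the shares in ILC2s were 46.0% and 44.7% for Arg1, 45.8% and 54.3% for Rnf128, 45.9% and 45.1% for Klrg1, and 16.4% and 21.4% for Calca.

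**Figure D1:**
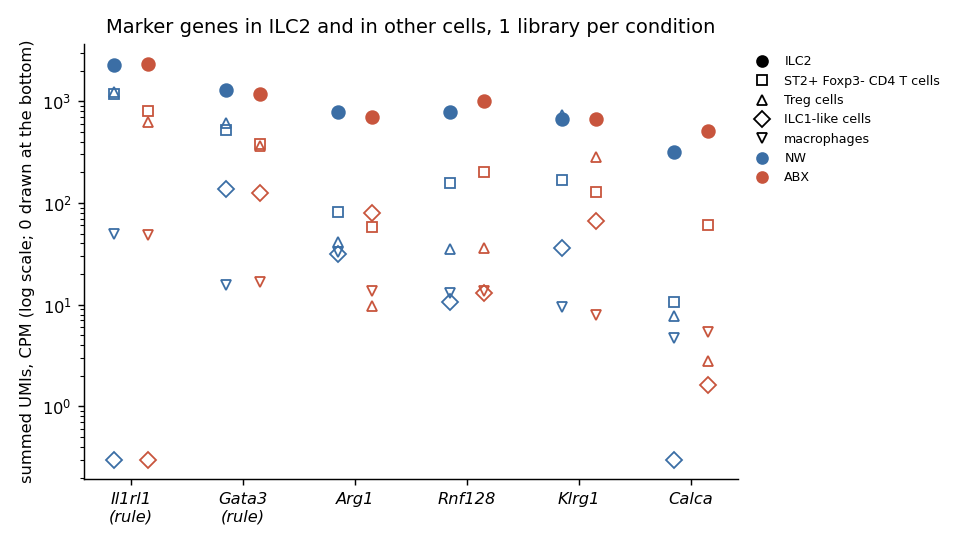
Level of ILC2 markers (CPM, log scale, with 0 drawn at the bottom) in the ILC2 members and the comparison cells of the NW and ABX libraries. Arg1, Calca and Rnf128 lie highest in ILC2s in both libraries, while Klrg1 in NW is about as high in Treg cells (736 CPM) as in ILC2s (668 CPM). The value of 0 for Il1rl1 in ILC1-like cells was set by their selection.

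Other genes known from ILC2s were present as well. Il7r, the receptor chain through which IL-7 and TSLP act, was present in 95.9% of the NW and 97.0% of the ABX members (macrophages 10.4% and 7.85%). Il2ra, the gene of CD25, had 1286 and 1504 CPM, and Rora 859 and 1012 CPM. Ptgdr2, the prostaglandin D2 receptor gene often used to identify ILC2s, had no UMI in any member of either library, which allows up to 3 UMIs per library. Il17rb, the IL-25 receptor chain, had 48.4 and 52.1 CPM and was detected in 13.2% and 12.5% of members (macrophages 0.261% and 0.271%).

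Lists of genes of other cell types were read in the members as a check on mixed droplets, and no doublet caller was applied. Of 13 T cell genes, 11 were detected in NW and all in ABX, summing to 1014 and 1030 CPM. Most of that sum came from Trbc2 (383 and 362 CPM), Tcrg-C1 (265 and 314 CPM), Lat (172 and 180 CPM) and Trbc1 (127 and 108 CPM), whereas Trac was at 6.43 and 5.76 CPM and Cd5 at 1.13 and 1.096 CPM. All 12 NK and ILC1 genes were detected, summing to 341 and 372 CPM, with Eomes at 13.2 and 3.29 CPM. Of 8 ILC3 genes, 3 and 6 were detected, summing to 15.9 CPM in both libraries with Il17a and Il22 at 0. Of 10 mast cell and basophil genes, 8 and 6 were detected, and Kit, which ILC2s can express, gave 451 of 464 CPM in NW and 346 of 362 CPM in ABX, with Mcpt8 and Prss34 at 0.

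Signal of macrophages and B lineage cells was also present. The 12 macrophage and monocyte genes summed to 2845 CPM in NW and 2279 CPM in ABX (24914 and 25936 CPM in macrophages), of which Ccr2, a chemokine receptor gene shared with lymphocytes, gave 1588 and 1350 CPM. All 8 dendritic cell genes were detected, at 1398 and 971 CPM. All 8 B and plasma cell genes were detected, at 5287 and 3570 CPM, against 14724 and 25548 CPM in the other cells. Endothelial genes summed to 63.5 and 93.7 CPM, fibroblast and adipocyte genes to 62.0 and 112 CPM, neutrophil genes to 38.9 and 15.6 CPM, and hemoglobin genes to 11.7 and 11.2 CPM. Members with no C1q and no Cpa3 UMI carry the least macrophage signal by construction, and their values are given below beside the results for all members. They were 122 of 612 members in NW and 389 of 998 in ABX. This limit thus kept unequal parts of the 2 libraries, whose macrophage shares were 52.1% and 40.6%. The effect of that on the ratios was not tested.

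Genes that marked ILC2s against all other cells were next ranked by the smaller of the NW and ABX ratios, outside the rule genes. The first 20 were Calca, Rnf128, Ccr8, Lif, Ccdc184, Igsf5, Tmem158, Ptgir, Klf5, Pard3, Cntn1, Ptpn13, Arg1, Hlf, Stc2, Tnfsf11, Rab27b, Hilpda, Csf2 and Nrgn, and their ratios lay between 17.3-fold and 61.4-fold. Ccr8, a chemokine receptor gene, was at 207 CPM in NW and 123 CPM in ABX, 61.4-fold and 37.6-fold above the other cells. Ptgir, the prostacyclin receptor gene, was at 213 and 189 CPM, 28.2-fold and 27.0-fold above. Lif, a cytokine of the IL-6 family, was at 112 and 82.8 CPM, 59.96-fold and 36.7-fold above. Tnfsf11, which encodes RANKL, was at 137 and 165 CPM, 19.7-fold and 23.0-fold above. Hlf, a PAR bZIP transcription factor gene, was at 269 and 290 CPM, 22.7-fold above in both libraries. Hilpda, a gene of lipid droplet turnover, was at 1299 and 842 CPM, 22.3-fold and 18.6-fold above. Genes were not ranked against ST2+ Foxp3- CD4 T cells. Against those cells Hlf was 2.16-fold higher in NW and 7.33-fold higher in ABX, and Csf2 3.26-fold and 7.24-fold higher.

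Against Treg cells, the 10 genes with the highest ratios were Hes1, Rab27b, Calca, Pard3, Ccdc184, Stc2, Tcrg-C4, Alox5, Tmem158 and Rnf128. Hes1, a transcription factor gene downstream of Notch, had 281 CPM in NW and 131 CPM in ABX members, against 2 and 1 UMIs in Treg cells, a ratio of 310 (85.5 to 2563) in NW and 93.8 (16.8 to 3713) in ABX. Alox5, the 5-lipoxygenase gene of leukotriene synthesis, was at 473 and 482 CPM, 23.7-fold and 38.3-fold above Treg cells. The lowest against Treg cells was Ikzf2, the gene of the Treg transcription factor Helios, at 85.4 and 97.6 CPM, 8.94-fold and 8.04-fold below. The other 9 were Jchain, Mpeg1, Ighm, Lgals3, Alox5ap, H2-Eb1, Ctss, Ccl6 and Igkc, genes of plasma cells, macrophages and antigen presentation. Members had a limit on C1q UMIs and Treg cells had none, so cells with much macrophage RNA were removed from the members only. The part of this limit in the lower values was not tested.

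Against ILC1-like cells, the 10 highest were Rnf128, Pard3, Ptpn13, Calca, Alox5, Neb, Il2ra, Tanc2, Ptgir and Slc7a8. Pard3, a cell polarity gene, had no UMI in ILC1-like cells. On a floor of 3 UMIs per library, its 324 and 404 CPM in members were 51.2-fold and 82.5-fold higher. The lower limits of the intervals were 41.5-fold and 67.0-fold. Il2ra was 50.8-fold and 38.4-fold higher in ILC2s. The lowest was Ccl5, a chemokine gene of cytotoxic lymphocytes, at 170 and 211 CPM, 25.4-fold and 24.9-fold below ILC1-like cells. Il2rb, the shared IL-2 and IL-15 receptor chain, was 7.398-fold and 9.38-fold below, and Tyrobp and Fcer1g, both genes of signalling adaptors, were 7.19-fold and 6.92-fold below in NW and 12.0-fold and 12.1-fold below in ABX. Itgb1, Lyst, Efhd2, AW112010, Mpeg1 and Alox5ap completed the 10 lowest.

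The libraries were then compared within ILC2s, gene by gene, on the UMIs summed over members. Across the 5227 genes that reached 200 UMIs in both libraries together, 44 (0.842%) were at least 1.5-fold higher in ABX and 88 (1.68%) at least 1.5-fold lower. The median log2 ratio of ABX to NW over all 5227 genes was -0.0057, with quartiles of -0.14 and 0.12. Of the 88 lower genes, 45 had less signal in ILC2s than in the other cells of both libraries, and so did 4 of the 44 higher genes.

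The lowest genes with their own expression in ILC2s were cytokines and genes induced by activation. Il5 (chr11:53720794-53725106, GRCm38), the eosinophil growth factor gene, gave 206 UMIs in NW members, or 77.9 CPM, and 71 UMIs in ABX members, or 19.5 CPM, for a log2 ratio of -2.0 (-2.41 to -1.61). It was detected in 12.1% of NW and 3.81% of ABX members (macrophages 0.246% and 0.0581%) and, at 1000 UMIs per cell, in 4.59% and 1.34%. Csf2 (chr11:54247271-54249667), the GM-CSF gene, was at 178 and 77.6 CPM, a log2 ratio of -1.20 (-1.42 to -0.98), in 17.0% and 12.6% of members (macrophages 0.569% and 0.639%). Without the 5 members of each library with the most Csf2 UMIs, the log2 ratio was -0.86, since 63 of its 471 NW UMIs lay in 1 cell.

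Nr4a1 (chr15:101254269-101274795), an orphan nuclear receptor gene induced within minutes of receptor signalling, was at 2008 CPM in NW and 852 CPM in ABX, a log2 ratio of -1.24 (-1.30 to -1.17). It was detected in 76.6% of the NW members and in 52.4% of the ABX members. Macrophages also had a UMI in 50.6% and 31.5% of cells, whether from their own expression or from free RNA, which was not tested, and at 1000 UMIs per cell the shares were 58.2% and 34.6% in ILC2s against 21.1% and 14.3% in macrophages. Gadd45b (chr10:80930073-80932204), a stress-induced gene, was at 190 and 59.8 CPM (log2 ratio -1.67). Bhlhe40 (chr6:108660629-108666925), a transcription factor gene that promotes cytokine production in T cells, was at 207 and 78.7 CPM (-1.40). Dusp5 (chr19:53529109-53542431), a nuclear ERK phosphatase gene, was at 499 and 211 CPM (-1.24). In the members with no C1q and no Cpa3 UMI these log2 ratios were -2.39 for Il5, -1.995 for Csf2, -1.39 for Nr4a1, -2.19 for Gadd45b, -1.55 for Bhlhe40 and -1.46 for Dusp5, each lower than over all members.

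The remaining genes of the 10 lowest were not typical of ILC2s. Rgs10 (-1.32), Dab2 (-1.19) and Cybb (-1.14) were at 49.9, 60.1 and 56.3 CPM in the NW members and at 292, 1113 and 617 CPM in NW macrophages. Igkv14-126, an immunoglobulin light chain variable gene, had 366 UMIs in NW and 8 in ABX, and 183 of the NW UMIs lay in 1 cell.

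The 10 highest genes were more often set by single cells. Of the 450 ABX UMIs of Iglv1, 447 came from 1 cell, as did 1439 of the 1547 of Iglc1, 248 of the 300 of Gsn and 284 of the 324 of Dcn. Cd79a and Iglc2, both B cell genes, had log2 ratios of 1.54 and 1.37, and Cd79a was lower in ILC2s (21.9 and 63.6 CPM) than in the other cells (119 and 349 CPM). Cited4, a transcriptional coactivator gene, was at 18.5 CPM in NW and 51.5 CPM in ABX (1.48), Gm26870, a long non-coding RNA gene, had a log2 ratio of 1.21, and Wipf3, an actin regulator gene, was at 38.9 and 83.1 CPM (1.09).

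Ccr9 (chr9:123678439-123784330), the gut-homing chemokine receptor gene, was the one trafficking gene among the 10 highest, with 86 UMIs in NW, or 32.5 CPM, and 241 UMIs in ABX, or 66.1 CPM, and a log2 ratio of 1.02. It was detected in 5.23% and 8.92% of members (macrophages 1.77% and 1.07%). In members with no C1q and no Cpa3 UMI the log2 ratio was 1.55. In Treg cells of the same libraries Ccr9 lay the other way, with 500 UMIs in NW and 16 in ABX (log2 ratio -3.34).

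**Figure D2:**
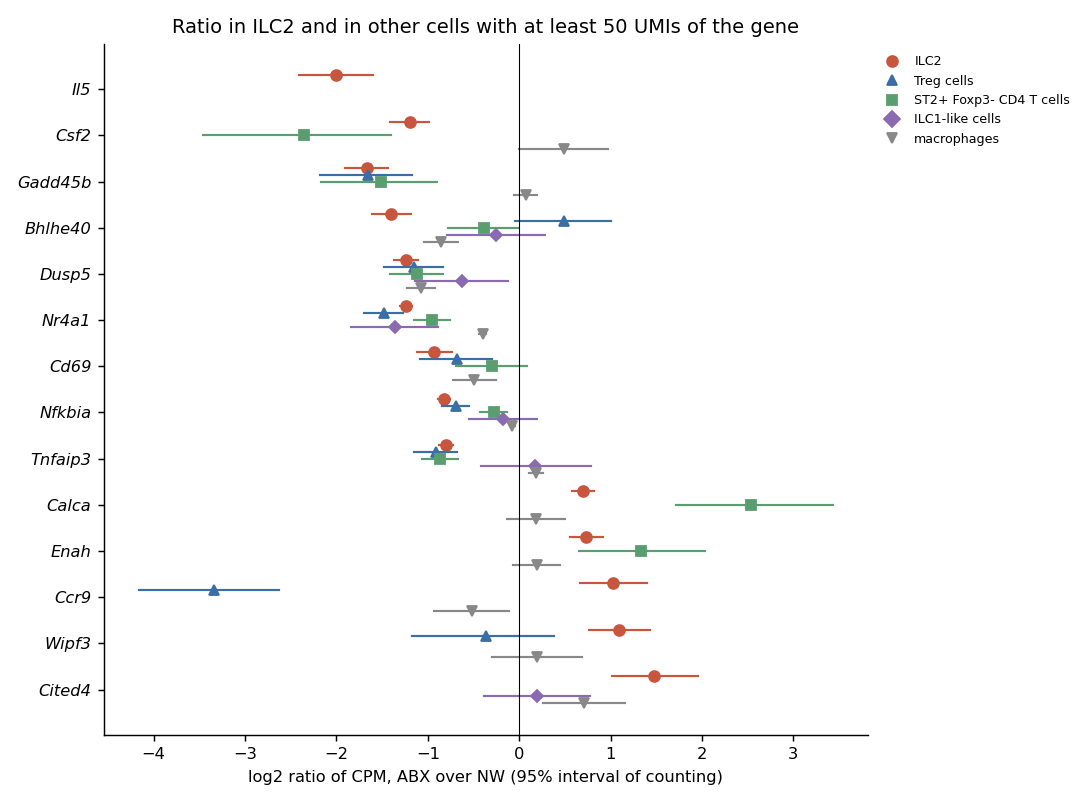
Log2 ratio of ABX to NW of named genes in ILC2s and in the comparison cells, with 95% counting intervals as bars, drawn where a population had at least 50 UMIs of the gene. Il5, Nr4a1, Gadd45b and Csf2 lie below 0 in ILC2s, and Calca and Ccr9 above 0.

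The activation genes were set beside the other cells of the same 2 libraries. For Nr4a1 the log2 ratio was -1.24 in ILC2s, -1.48 in Treg cells, -0.95 in ST2+ Foxp3- CD4 T cells, -1.36 in ILC1-like cells and -0.40 in macrophages, so it was below 0 in all 4 comparison populations. Dusp5 was also lower in all of them, from -0.63 to -1.15. Gadd45b was at -1.65 in Treg cells, -1.51 in ST2+ Foxp3- CD4 T cells and 0.07 in macrophages. Bhlhe40 was at 0.49 in Treg cells and -0.86 in macrophages, against -1.40 in ILC2s. Il5, with 45 and 4 UMIs in ST2+ Foxp3- CD4 T cells, had a log2 ratio of -2.79 there. Csf2 was also lower in those T cells, at 54.6 CPM in NW and 10.7 CPM in ABX (83 and 10 UMIs). In macrophages Csf2 was at 1.84 and 2.57 CPM, and Treg cells had 5 and 4 UMIs of it. Areg was at 57.7 and 6.98 CPM in Treg cells (127 and 5 UMIs) and at 1.29 and 0.269 CPM in macrophages. It had 20 and 0 UMIs in ST2+ Foxp3- CD4 T cells. No difference between cell types was tested.

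Genes of ILC2 identity lay near the median of all genes. The counts past 1.5-fold in this and the following lists stand beside 0.842% higher and 1.68% lower over all 5227 genes. Of 22 other known ILC2 genes, 18 had at least 200 UMIs, their median log2 ratio was 0.05, and Il5 and Csf2 were the 2 that were 1.5-fold lower, with none 1.5-fold higher. Of 26 transcription factor genes, 21 had enough UMIs (median -0.03), and Tcf7 (46.1 and 21.9 CPM, -1.07), the gene of TCF-1, and Zeb2 (-0.59) were 1.5-fold lower. Rora (0.24), Gata3 (-0.12), Id2 (-0.03), Bcl11b (-0.19) and Ets1 (-0.08) all lay within 1.5-fold, and Gata3 is a gene of the rule.

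Receptors for alarmins and cytokines were likewise close to the median of all genes. Of 24 genes, 22 had at least 200 UMIs, with a median log2 ratio of 0.03. The 1 gene past 1.5-fold was Il18rap, the accessory chain of the IL-18 receptor, at 120 CPM in NW and 183 CPM in ABX (0.61). Il7r was at 2365 and 2723 CPM (0.20), Il2ra at 0.23, Crlf2, the TSLP receptor chain, at 0.05, and Il9r at -0.10.

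Among 25 cytokine and secreted factor genes in the files, 12 had at least 200 UMIs, of which 3 were 1.5-fold lower (Il5, Csf2 and Furin at -0.63) and Calca was 1.5-fold higher, with a median of 0.04. Several type 2 genes were too sparse for that comparison. Il13 had 73 UMIs in NW, 57 of them in 1 cell, and 7 in ABX. Areg, the amphiregulin gene, had 151 and 37 UMIs and was detected in 6.54% and 2.004% of members (macrophages 0.646% and 0.116%). Il4 had 7 and 16 UMIs, Ccl1 63 and 5, and Penk, the proenkephalin gene, 15 and 54, of which 47 lay in 1 ABX cell. Lif (-0.43), Tnfsf11 (0.26), Ltb (0.28), Tnf (0.17) and Bmp7 (0.08) lay within 1.5-fold.

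Receptors for neuropeptides, adrenergic signals and lipid mediators included 9 of 21 genes with enough UMIs, with a median of -0.05. Ret, the signalling receptor for glial cell line-derived ligands, was at 24.6 CPM in NW and 41.1 CPM in ABX (0.74) and was the 1 gene past 1.5-fold. The CGRP receptor component Ramp1 was at 242 and 229 CPM (-0.08) and Ramp3 at 122 and 146 CPM (0.25). Nmur1, the neuromedin U receptor gene, had 44 and 95 UMIs, below the minimum. Of 18 co-stimulation and checkpoint genes, 9 had enough UMIs (median -0.01). Pdcd1, the PD-1 gene, was the 1 past 1.5-fold, at 279 and 185 CPM (-0.59), and it was detected in 37.4% and 25.9% of members (macrophages 1.31% and 0.523%).

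Negative regulators of cytokine and NF-κB signalling were lower as a list, with a median log2 ratio of -0.45 over the 18 of 21 genes with at least 200 UMIs, against -0.0057 for all genes. Of these, 7 were 1.5-fold lower and 2 were 1.5-fold higher, where 1.68% of all 5227 genes were lower and 0.842% higher. The list was chosen with earlier results of these data known. The lower ones were Nfkbia (-0.82) and Nfkbid (-0.79), which encode IκB proteins, Tnfaip3 (-0.80), the A20 gene, the mRNA-decay genes Zfp36 (-0.77) and Zc3h12a (-0.66), and the phosphatase genes Dusp2 (-1.09) and Dusp5 (-1.24). The higher ones were Socs1 (99.1 and 154 CPM, 0.63) and Socs2 (289 and 434 CPM, 0.59), inhibitors of cytokine receptor signalling. Many of the lower genes are themselves induced by NF-κB or MAP kinase signalling. Markers of other cell types moved the same way in the members. The macrophage and monocyte genes had a median of -0.47 over 6 genes and a log2 ratio of -0.32 for their summed UMIs, with Lyz2 (-0.61) and Csf1r (-0.64) 1.5-fold lower, and the dendritic cell genes had a summed log2 ratio of -0.53. The summed negative regulators were at 16983 CPM in NW and 12654 CPM in ABX members against 6968 and 6588 CPM in macrophages, and their summed log2 ratio was -0.42 over all members and -0.43 in members with no C1q and no Cpa3 UMI. In the comparison cells, whose medians were taken over list genes with at least 50 UMIs and so over other genes than in ILC2s, the list had a median of -0.40 in Treg cells (20 genes), -0.09 in ST2+ Foxp3- CD4 T cells (19 genes), -0.16 in ILC1-like cells (16 genes) and -0.0016 in macrophages (21 genes).

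Immediate early and heat shock genes, which tissue digestion can induce, were mixed. The median over 19 of 24 genes was -0.23, and Nr4a1 and Btg2 (-0.68) were 1.5-fold lower, with none 1.5-fold higher. Junb (-0.52), Fosb (-0.44) and Egr1 (-0.28) were lower by less than 1.5-fold, Fos (0.07) was level, and Hspa1a (0.47) and Hspa1b (0.43) were higher by less than 1.5-fold. On the same minimum of 50 UMIs, the list had a median of -0.49 in Treg cells (24 genes), -0.15 in ST2+ Foxp3- CD4 T cells (23 genes), -0.23 in ILC1-like cells (19 genes) and -0.18 in macrophages (24 genes). The part of digestion and handling in these values was not tested.

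Residence, migration and adhesion genes had a median of -0.23 over 19 of 24 genes, with 4 lower and 1 higher. Over all 5227 genes, 1.68% were lower and 0.842% higher. The list was also below 0 in each comparison population, on a minimum of 50 UMIs. Its median was -0.34 in Treg cells (24 genes) and -0.27 in ST2+ Foxp3- CD4 T cells (20 genes). It was -0.16 in ILC1-like cells (17 genes) and -0.30 in macrophages (23 genes). Cd69, which opposes tissue exit, was at 198 CPM in NW and 104 CPM in ABX (-0.93), Ccr8 at -0.75, and the G protein regulators Rgs1 and Rgs2 at -0.68 and -0.71. Cxcr6, a receptor gene of tissue-resident lymphocytes, was at 774 and 775 CPM (0.0015). Cd69 was detected in 39.4% and 22.1% of members (macrophages 3.77% and 2.56%) and, at 1000 UMIs per cell, in 15.6% of NW and 8.72% of ABX members.

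Metabolic lists were level. Arginine and polyamine genes had a median of -0.01 over 9 of 14 genes, with Odc1, which makes putrescine, 1.5-fold lower (-0.64) and Arg1 at -0.18. Lipid metabolism (8 of 20 genes, median -0.01) and glycolysis and hypoxia (17 of 20 genes, median -0.0011) had no gene past 1.5-fold, and neither did interferon-stimulated genes (7 of 20, median -0.03). The lipid metabolism and the glycolysis and hypoxia lists did not include Hilpda, the lipid droplet gene named above. Its level was lower in ABX past 1.5-fold, at 1299 CPM in NW and 842 CPM in ABX. Receptors for microbial metabolites had 6 of 16 genes with enough UMIs and a median of 0.24, with no gene past 1.5-fold. In that list Pparg, the fatty acid sensing nuclear receptor gene, was at 99.4 and 135 CPM (0.44), Ahr at 0.27 and Ffar2, a short-chain fatty acid receptor gene, at 34.8 and 43.0 CPM (0.31). Cell cycle genes had a median of -0.07 over 6 of 20 genes, and Top2a (-0.89) and Tuba1b (-0.76) were 1.5-fold lower. MHC class II genes had a median of -0.37 over 5 of 7 genes with none past 1.5-fold, and they summed to 5184 and 4008 CPM in ILC2s against 28342 and 31846 CPM in macrophages.

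**Figure D3:**
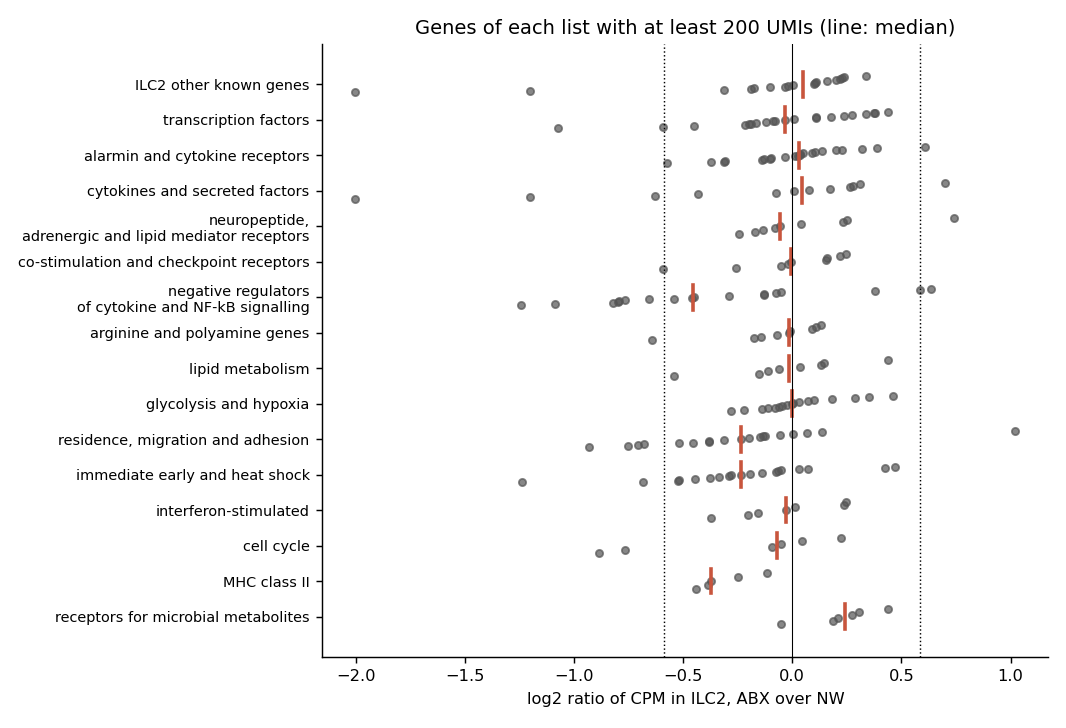
Log2 ratio of ABX to NW in ILC2s for each gene with at least 200 UMIs of the gene lists, 1 point per gene with the list median marked. Of the lists drawn, which leave out those of other cell types, the negative regulators have the lowest median at -0.45, and the dotted lines mark 1.5-fold.

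Calca was the ILC2 marker that differed most between the libraries. It lies at chr7:114631478-114636357 and gave 835 UMIs in NW, or 316 CPM, and 1869 UMIs in ABX, or 512 CPM, with a log2 ratio of 0.70 (0.58 to 0.82). In ST2+ Foxp3- CD4 T cells it had 16 and 57 UMIs, a log2 ratio of 2.53. Its counts also varied widely among members, with a variance 13 times and 13.6 times that of Poisson sampling at the cells' depths, against medians of 1.35 and 1.30 over 2496 genes. The interval of the Calca ratio does not cover this variation. In members with no C1q and no Cpa3 UMI its log2 ratio was 0.47, below 1.5-fold.

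Members with and without a Calca UMI (166 and 446 cells in NW, 343 and 655 in ABX) were described side by side, a split chosen after values had been seen. Cells with Calca had more Hes1, by a log2 ratio of 1.32 in NW and 1.59 in ABX, more Icos (1.14 and 1.01), more Ret (1.12 and 1.33) and more Pdcd1 (0.58 and 1.53). They had less Tcf7 (-1.81 and -1.14), less Csf2 (-1.90 and -0.56), less Gadd45b (-0.99 and -0.85) and less Arg1 (-0.52 and -0.58). Il5 (-0.57 in NW and 0.74 in ABX) and Ccr9 (1.05 and -0.61) differed in direction between the libraries. Of the rule genes, Il1rl1 was close to equal (0.01 and 0.12) and Gata3 was somewhat higher in cells with Calca (0.27 and 0.23). Il2ra was close to equal (-0.0021 and 0.08), while Rora (0.34 and 0.49) and Tnfrsf18 (0.41 and 0.57) were higher in cells with Calca. At 1000 UMIs per cell, Calca and Icos were detected together 1.68 times as often in NW and 1.51 times as often in ABX as their separate shares would give, Calca and Ret 1.66 and 1.77 times, and Calca and Tcf7 0.419 and 0.686 times.

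**Figure D4:**
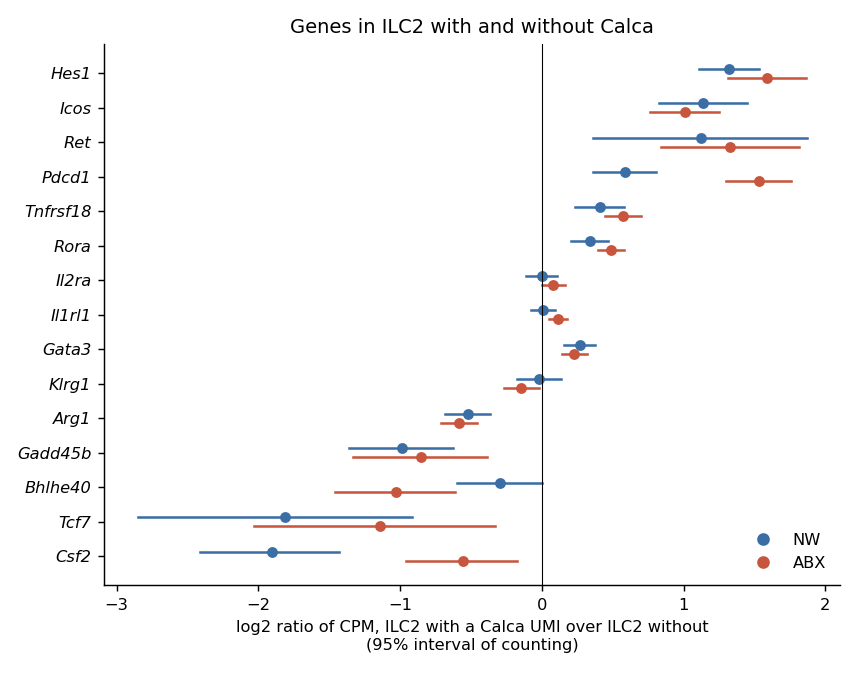
Log2 ratio of the level in members with a Calca UMI to that in members without one, per gene and library, with 95% counting intervals. Hes1, Icos and Ret lie above 0 and Tcf7 and Arg1 below 0 in both libraries.

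Il5 and Csf2 tended to lie in the same cells. The 74 NW and 38 ABX members with an Il5 UMI had more Csf2 than the other members, by log2 ratios of 2.42 (588 against 110 CPM) and 2.02 (275 against 67.9 CPM), more Bhlhe40 (1.36 and 1.08) and more Gadd45b (1.198 and 1.26). At 1000 UMIs per cell, Il5 and Csf2 were detected together in 1.01% of NW and 0.183% of ABX members, 2.95 and 2.79 times the product of their shares, which rests on 24 and 11 cells with both before thinning. Il5+ members were deeper than the others, with medians of 4699.5 against 3917.5 UMIs in NW and 4111 against 3495 UMIs in ABX. Their antibody medians were higher for all 3 antibodies read in this split, with 45 against 35 UMIs for CD25, 249.5 against 169.5 UMIs for CD44 and 20 against 17 UMIs for CD69 in NW, and 62 against 40, 214 against 145 and 13 against 9 UMIs in ABX. The part of depth in these differences was not tested.

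Among the 2496 genes with at least 200 UMIs in each library, those that varied most between members, beyond what depth gives, were mainly genes of other cells. Genes below that minimum in 1 library, such as Iglc1, were not ranked. Igkc, Ighm, Jchain, Cd74, H2-Ab1, Cst3, H2-Aa and H2-Eb1 led in both libraries, with a variance of 736 times Poisson in NW and 334 times in ABX for Igkc, and all 8 were lower in ILC2s than in the other cells. The mitochondrial gene mt-Co1 and Zfp36 (19.3 and 14.7 times) completed the first 10.

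Surface antibodies other than CD4 were not used by the rule and gave a second readout of the same cells. CD25, the IL-2 receptor α chain, had a median of 36 UMIs (quartiles 18.8 and 61) in NW members and 41 UMIs (22 and 68) in ABX members, against 32 and 14 UMIs in Treg cells, 14 and 14.5 UMIs in ST2+ Foxp3- CD4 T cells and 7 and 5 UMIs in ILC1-like cells. The quartile ranges of the libraries overlapped, and 54.5% of ABX members lay above the NW median. CD69 had a median of 18 UMIs (9 and 31) in NW and 9 UMIs (4 and 16) in ABX, and 21.04% of ABX members lay above the NW median. Its median in Treg cells was 10 and 7 UMIs, in ILC1-like cells 6 and 4 UMIs and in macrophages 7 and 6 UMIs. CD69 made up 7.09% of the antibody UMIs of NW members and 4.53% of those of ABX members, while CD25 made up 13.3% and 17.4%.

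The other antibodies gave a low or shared signal. CD44 had medians of 179.5 and 147 UMIs. The medians were 15 and 11 UMIs for NK-1.1, 9 and 7 UMIs for TCR-β, 7 and 6 UMIs for CD8b and for CD1d, 5 and 3 UMIs for CD3, and 2 UMIs in both libraries for CD62L. Macrophages, which bear no T cell receptor, had a TCR-β median of 17 UMIs in NW, and Treg cells of 48 UMIs, so the NW members lay below the level that macrophages gave. In ILC1-like cells the TCR-β medians were 9.5 UMIs in NW and 8 UMIs in ABX, close to those of the members.

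**Figure D5:**
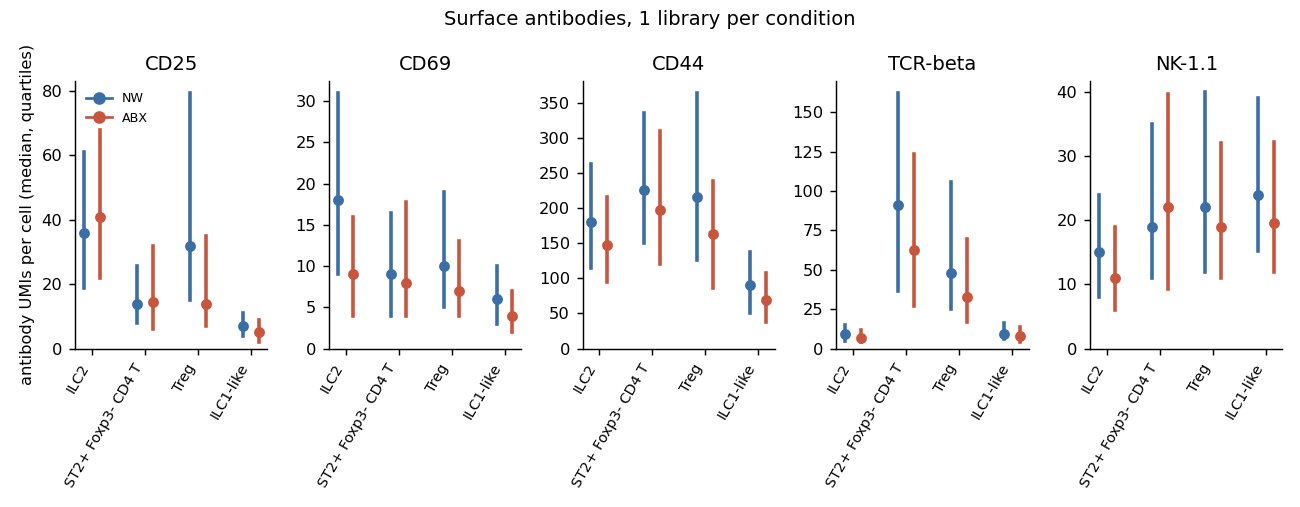
Antibody UMIs per cell (median as point, quartiles as bar, linear axes) in ILC2s and comparison cells of each library. In ILC2s CD69 is lower in ABX (median 9) than in NW (median 18), and CD25 has a higher median than in Treg cells of the same library.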

How the data were processed

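CD45+ cells of VAT were profiled with the BD Rhapsody Whole Transcriptome Assay and tagged antibodies, 1 NW and 1 ABX library. The deposited files hold UMI counts per gene and per antibody (10 antibody columns) for each cell barcode, made by the authors with the BD Rhapsody pipeline on GRCm38 with correction of UMI errors and selection of putative cells, and they are not normalised. The submitters' processing notes name mm10, R 3.6.0 and Seurat 3.0.1. The RNA and antibody counts were not corrected for free RNA, which raises genes of abundant cells in every cell.

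Barcodes with at least 500 gene UMIs, at least 200 genes and at most 25% mitochondrial UMIs were kept (12474 of 17662 in NW, 12724 of 17785 in ABX). Members were selected by the rule given above, and their gene UMIs were summed per library and divided by the summed gene UMIs (CPM). Treg cells had at least 1 UMI of Foxp3 and of Cd3e or Cd3d and at least 10 CD4 antibody UMIs. ST2+ Foxp3- CD4 T cells had Il1rl1 in place of Foxp3. Neither T cell population had a limit on C1q or Cdh5. ILC1-like cells had at least 1 UMI of Ncr1 and a C1q sum below 5 UMIs. They had no UMI of Eomes, Klra8, Il1rl1, Cd3e, Cd3d or Cdh5. Cells are not replicates, so no test was run. Ratios have exact intervals for 2 Poisson counts, shares have Clopper-Pearson intervals, and each covers counting error only. A ratio of 1.5-fold in genes with at least 200 UMIs was the rule of size, and a floor of 3 UMIs was used where a group had none. Genes named in the text were the markers, the list genes, the 10 highest and 10 lowest ratios, the top 20 genes against all other cells, the 10 highest and lowest against Treg and ILC1-like cells and the 10 most variable genes. Detection was computed at 1000 UMIs per cell as a hypergeometric expectation. Members and gene lists were chosen with earlier results of these data known. Coordinates come from GENCODE M21 (GRCm38). Python 3.11.15, numpy 2.4.6, pandas 2.3.3 and scipy 1.17.1 were used, and the calculation was tested on simulated counts. Alternatives for the limits of the rule, the scaling, the minimum of UMIs, the fold and the cells with most UMIs were computed.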

Additional observations from a re-analysis of the deposited data

Results flagged for a closer look

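Given here are genes named for their ABX to NW ratio in ILC2s whose ratio was at least 1.5-fold the other way in a comparison population with at least 200 UMIs of the gene. Smaller opposite ratios, such as those of Bhlhe40 in Treg cells and Gadd45b in macrophages, are not listed, and no difference between populations was tested. Ccr9 had a log2 ratio of 1.02 in ILC2s and -3.34 in Treg cells (500 and 16 UMIs). Igkv14-126 was at -5.98 in ILC2s, 3.31 in Treg cells and 8.29 in ST2+ Foxp3- CD4 T cells, where it had 3 UMIs in NW and 578 in ABX, and 183 of its 366 NW UMIs in ILC2s lay in 1 cell. Cybb was at -1.14 in ILC2s and 1.53 in ST2+ Foxp3- CD4 T cells. Iglv1 was at 5.76 in ILC2s, with 447 of its 450 ABX UMIs in 1 cell, and at -0.70 in macrophages.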

How the results depend on the processing

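The ILC2 share was higher in ABX under every alternative run. Its log10 ratio of 0.204 became 0.291 when Cd3g and Trac were also at 0 and the TCR-β antibody was below 10 UMIs. It became 0.495 when Cpa3 and the C1q sum were at 0, which kept 122 of 612 NW and 389 of 998 ABX members. With cells below 5 C1q UMIs as the denominator it was 0.0885. The 44 higher and 88 lower genes became 136 and 203 without the Gata3 requirement, 27 and 57 with Cpa3 and C1q at 0, 141 and 189 at a minimum of 100 UMIs, 13 and 39 at 500 UMIs, and 10 and 15 at 2-fold, and the lower genes became 48 under the T cell limits. Of the 44 and 88 genes, only 4 and 24 were among those past 1.5-fold with Cpa3 and C1q at 0, 14 and 32 under the T cell limits, and 32 and 58 without the Gata3 requirement. Restricted to 3594 genes at least as high in members as in the other cells of both libraries, an alternative chosen after seeing the data, 30 were higher and 34 lower. The other 22 values of the share and the counts moved by less than the limits set for them. Of 534 alternative values of 49 named genes, 431 stayed within the limits set for them, 100 moved further without a change of sign, and 3 changed sign. The 3 were Cybb at 0.066 under the T cell limits, Iglv1 at -1.53 in cells of 1000 to 10000 UMIs and Gsn at -0.86 with Cpa3 and C1q at 0. The log2 ratio ranged from -2.79 to -1.94 for Il5, -1.39 to -1.17 for Nr4a1, -1.995 to -0.85 for Csf2, 0.47 to 0.84 for Calca and 0.98 to 1.55 for Ccr9. The cause of these moves was not tested. No paired analysis was possible because the labels give no replicate numbers and each group has 1 library. Depth limits genes below 200 UMIs, Il13, Areg, Il4 and Nmur1 among them.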
